A study of Mus musculus with 23 samples.

Results

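In the mouse melanoma line B16F10, whether cultured, grown as whole tumors or sorted back out of them, 10 genes outside chromosome 8 moved the same way with sg495, one of 2 single guide RNAs used to edit Nr2f6. The members were Tinagl1, Clu, Tnfrsf19, 2610305D13Rik and Gm9732, which were higher, and Fam81a, Pnma2, Lmo1, H1fx and Zfp600, which were lower. They were selected by name from the 47643 genes of the expression table for this very pattern, so their difference between sg495 and control is described here without a test. The other guide, sg492, served as the check.

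The control, sg492 and sg495 groups had 2 libraries each in each of the 3 sample types, 18 libraries in all. All cells were B16F10; the edited cells had received Cy3-labeled guide RNA with Cas9 protein and were sorted for Cy3, so each edited group was a sorted pool that no source describes as a single clone. The tumors grew in male C57BL/6 mice that were 6 to 8 weeks old when the cells were injected, and the sorted tumor cells came from collagenase-digested tumors after stromal cells were depleted on magnetic columns. A further 2 libraries labeled IgG control and 3 labeled anti-PD1, all labeled wild type, carried no sample-type label. The labels do not say whether libraries of a group came from separate animals or cultures, so p-values measure only the spread between libraries. Expression was given as TPM, a share of the library's transcripts scaled for transcript length, which keep no total count, so how deeply each library was read is not known.

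NR2F6 is an orphan nuclear receptor of the COUP-TF subfamily that acts mainly as a repressor of transcription at DNA sites built from the AGGTCA motif. The 10 genes belong to no single pathway. They include secreted proteins (Tinagl1, Clu), a receptor at the cell surface (Tnfrsf19), a transcriptional adaptor (Lmo1), a linker histone (H1fx) and members of the KRAB zinc finger family, repressors that recruit a silencing complex through the cofactor encoded by Trim28 (Zfp600, 2610305D13Rik).

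The targeted gene itself remained detected in every library. In bulk tumors, Nr2f6 was at 25.8 and 25.2 TPM in the controls, 22.3 and 23.3 TPM under sg492 and 17.2 and 15.8 TPM under sg495. Among sorted cells it was at 20.3 and 17.7 TPM in the controls, 19.8 and 25.7 TPM under sg492 and 10.6 and 12.2 TPM under sg495. Cultured cells had 31.9 and 32.9 TPM in the controls, 26.6 and 31.5 TPM under sg492 and 18.6 and 22.4 TPM under sg495. Nr2f6 RNA was below both controls in both sg495 libraries of each sample type, and the sg492 libraries were below both controls in bulk tumors and cultured cells but overlapped them in sorted tumor cells. The sg495 difference in Nr2f6 passed the thresholds in cultured cells (log2 difference -0.64, limma, adjusted p = 0.0213), a call lost without the expression filter and when either control library or sg495 replicate 1 was left out. It missed the adjusted threshold in bulk tumors (limma, adjusted p = 0.0865) and sorted tumor cells (limma, adjusted p = 0.126). An edit that changes the protein need not lower the RNA, so these levels do not measure editing. Per the study's methods, the knockout was checked by immunoblotting and then by sequencing the sites that the guides target.

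The calls came from limma on log2(TPM + 1) and needed both an adjusted p (Benjamini-Hochberg) under 0.05 and a change of 1.5-fold or more. By that rule sg495 called 0.0293% of 13639 genes (bulk), 0.899% of 12899 (sorted) and 2.77% of 12007 (cultured). Of the 11711 genes tested in all 3 sample types, 3299 off chromosome 8 differed in the same direction in each. Of those, 29 differed at least 1.5-fold in each, and 15 of the 29 had an unadjusted p below 0.05 in each (limma). All 10 members were among the 15, but they were chosen on this same contrast, so that is a description and no test of them. The other 5, Tubb2b, Spry1, Hoxb9, Mbp and Uba7, were named after their values were seen and are not members. Just inside the fold limit stood 2610305D13Rik, with a smallest difference of 1.54-fold over the sample types, and Tnfrsf19, with 1.54-fold. Just outside it stood Cxcl10, with 1.49-fold. Genes on chromosome 8, where Nr2f6 lies, had a median sg495 log2 difference of -0.25 (bulk), -0.34 (sorted) and -0.33 (cultured). On the 5 chromosomes that carry the members, the medians ran from -0.05 to 0.09.

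**Figure D1:**
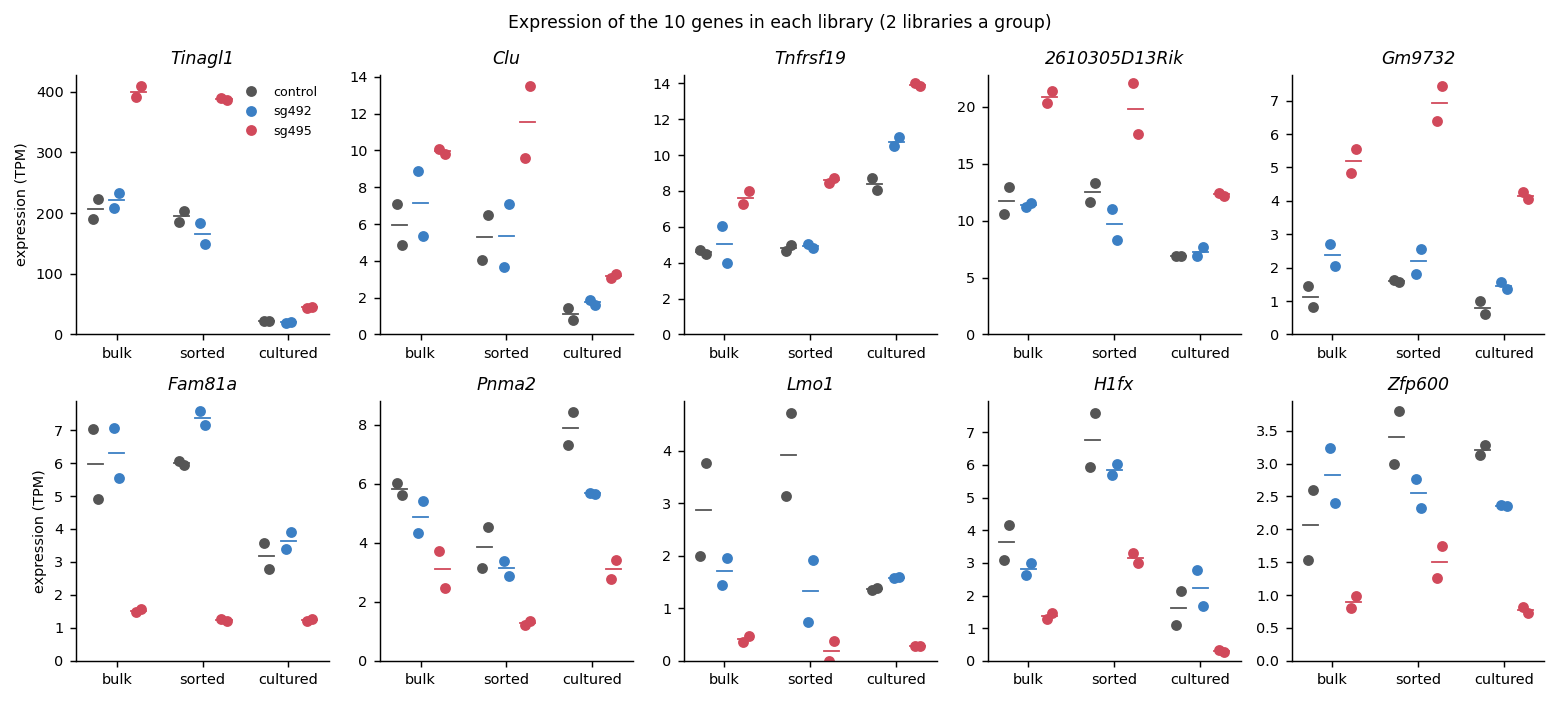
Expression in TPM of the 10 genes in each of the 18 libraries, by sample type (bulk, sorted, cultured); points are libraries, bars are means of 2 libraries, gray is control, blue is sg492 and red is sg495. In each panel both sg495 libraries lie beyond both controls in each sample type, upward in the top row and downward in the bottom row.

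Tinagl1, which encodes a secreted glycoprotein of basement membranes that binds integrins and other matrix proteins, was the most abundant member (GRCm38 chr4:130164454-130175122, minus strand). In bulk tumors it was at 191 and 223 TPM in the controls, 209 and 233 TPM under sg492 and 390.4 and 409 TPM under sg495. In sorted tumor cells it was at 185 and 204 TPM in the controls, 183 and 149 TPM under sg492 and 390.2 and 386 TPM under sg495. In cultured cells it was at 21.7 and 21.6 TPM in the controls, 19.01 and 20.9 TPM under sg492 and 44.01 and 45.2 TPM under sg495. The sg495 libraries stood far above the others in each sample type, while control and sg492 lay much closer together. The sg495 mean was 1.93 times the control mean (bulk), 1.99 times (sorted) and 2.06 times (cultured), although the level in cultured cells was much lower. On the log2(TPM + 1) scale the sg495 difference, with its standard error, was 0.95 ± 0.10 (bulk), 0.99 ± 0.11 (sorted) and 1.01 ± 0.07 (cultured). The sg492 difference was 0.10 (95% interval -0.14 to 0.33), -0.23 (95% interval -0.51 to 0.04) and -0.11 (95% interval -0.27 to 0.05) in the same order.

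Clu encodes clusterin, a secreted chaperone also known as apolipoprotein J (GRCm38 chr14:65968483-65981547, plus strand). Bulk tumors had 7.09 and 4.85 TPM in the controls, 8.9 and 5.35 TPM under sg492 and 10.1 and 9.82 TPM under sg495. The sorted cells had 4.05 and 6.5 TPM in the controls, 3.66 and 7.08 TPM under sg492 and 9.6 and 13.5 TPM under sg495. Cultured cells, where Clu was near the 1 TPM limit of the filter, had 1.42 and 0.78 TPM in the controls, 1.87 and 1.61 TPM under sg492 and 3.05 and 3.26 TPM under sg495. The sg495 libraries were the highest of each sample type, but in bulk tumors sg492 replicate 1 came close to them. The sg495 log2 difference was 0.67 ± 0.25 (bulk), 1.01 ± 0.33 (sorted) and 1.00 ± 0.20 (cultured). Without bulk control replicate 2 the bulk value was 0.44. The sg492 difference in sorted tumor cells, where the libraries of each group lay far apart, was -0.00 (95% interval -0.82 to 0.81).

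Tnfrsf19, a receptor of the tumor necrosis factor receptor superfamily known as TROY and as a target of Wnt signaling, behaved more evenly (GRCm38 chr14:60963875-61046490, minus strand). It was at 4.71 and 4.46 TPM in the controls, 6.05 and 4 TPM under sg492 and 7.28 and 7.98 TPM under sg495 in bulk tumors. In sorted cells it was at 4.66 and 4.96 TPM in the controls, 5.06 and 4.81 TPM under sg492 and 8.44 and 8.74 TPM under sg495. In culture it was at 8.71 and 8.07 TPM in the controls, 10.5 and 10.99 TPM under sg492 and 13.99 and 13.8 TPM under sg495. Cultured cells were the only sample type in which both sg492 libraries also lay above both controls, between control and sg495. The sg495 log2 difference was 0.63 ± 0.19 (bulk), 0.72 ± 0.14 (sorted) and 0.67 ± 0.08 (cultured). The sg492 difference in cultured cells was 0.32 (95% interval 0.13 to 0.52), with an adjusted p of 0.3 in limma, and was not called.

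Lmo1 encodes a LIM-only protein, an adaptor that joins transcription factors through LDB1 and is an oncogene in T cell leukemia and neuroblastoma (GRCm38 chr7:109138572-109175207, minus strand). It was at 1.99 and 3.76 TPM in the controls, 1.45 and 1.96 TPM under sg492 and 0.35 and 0.47 TPM under sg495 in the bulk tumors. Among sorted tumor cells it was at 3.13 and 4.71 TPM in the controls, 0.74 and 1.91 TPM under sg492 and 0 and 0.37 TPM under sg495. Among cultured cells it was at 1.34 and 1.38 TPM in the controls, 1.57 and 1.59 TPM under sg492 and 0.28 and 0.28 TPM under sg495. Lmo1 was at 0.47 TPM or less in all 6 sg495 libraries, and 1 sorted library listed it at 0, which in a table without counts may also be an estimate that failed. The sg495 log2 difference was -1.42 ± 0.29, -2.05 ± 0.38 and -0.88 ± 0.18 in bulk, sorted and cultured samples. With a pseudocount of 0.1 TPM in place of 1 TPM these became -2.49, -4.18 and -1.94. The sg492 libraries were below both controls in bulk tumors (log2 difference -0.49 with 95% interval -1.19 to 0.22) and sorted tumor cells (log2 difference -1.11 with 95% interval -2.04 to -0.18) but above both in cultured cells (log2 difference 0.13 with 95% interval -0.31 to 0.57).

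H1fx encodes H1.X, a linker histone whose gene, unlike the replication-dependent histone genes, yields polyadenylated RNA (GRCm38 chr6:87980421-87981637, minus strand; RefSeq names it H1f10). Its level was 3.1 and 4.17 TPM in the controls, 2.64 and 3 TPM under sg492 and 1.28 and 1.45 TPM under sg495 in bulk tumors. Its level in sorted tumor cells was 5.93 and 7.6 TPM in the controls, 5.7 and 6.02 TPM under sg492 and 3.29 and 3.01 TPM under sg495. Its level in cultured cells was 1.1 and 2.14 TPM in the controls, 2.79 and 1.68 TPM under sg492 and 0.34 and 0.28 TPM under sg495. The sg495 libraries were lowest in each sample type, and those of cultured cells were at 0.34 TPM or less. The sg495 log2 difference was -0.96 ± 0.20 (bulk), -0.90 ± 0.18 (sorted) and -0.97 ± 0.28 (cultured), on a scale whose added 1 TPM shrinks the change of so low a gene. A pseudocount of 0.1 TPM in place of 1 TPM moved the cultured value to -2.003. With sg492 the difference, in the same order, was -0.27, -0.17 and 0.31, none of them called.

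Fam81a, which encodes a coiled-coil protein known mainly from the brain, lies at GRCm38 chr9:70088511-70142560, minus strand. In bulk tumors Fam81a was at 7.03 and 4.92 TPM in the controls, 7.07 and 5.55 TPM under sg492 and 1.48 and 1.57 TPM under sg495. In sorted tumor cells Fam81a was at 6.06 and 5.95 TPM in the controls, 7.57 and 7.15 TPM under sg492 and 1.28 and 1.22 TPM under sg495. In cultured cells Fam81a was at 3.58 and 2.79 TPM in the controls, 3.38 and 3.91 TPM under sg492 and 1.2 and 1.26 TPM under sg495. The 6 sg495 libraries lay between 1.20 and 1.57 TPM whatever the sample type, although the control level differed between sample types. The control mean was 3.92 times the sg495 mean (bulk), 4.8 times (sorted) and 2.59 times (cultured). The log2 difference of sg495 was -1.45 ± 0.21, -1.64 ± 0.16 and -0.90 ± 0.16, and, in the same order of sample types, that of sg492 was 0.08, 0.25 and 0.15.

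Pnma2 encodes a paraneoplastic Ma antigen, a protein derived from the Gag of a retrotransposon and expressed mainly in neurons (GRCm38 chr14:66911170-66921023, plus strand). Bulk tumors were at 6.02 and 5.62 TPM in the controls, 4.33 and 5.41 TPM under sg492 and 3.71 and 2.48 TPM under sg495. Sorted tumor cells were at 3.13 and 4.55 TPM in the controls, 3.38 and 2.88 TPM under sg492 and 1.21 and 1.35 TPM under sg495. Cultured cells were at 7.32 and 8.45 TPM in the controls, 5.7 and 5.66 TPM under sg492 and 2.78 and 3.41 TPM under sg495. The sg495 libraries were lowest throughout, and the sg492 libraries lay between control and sg495 in bulk tumors and cultured cells. The sg495 log2 difference was -0.75 ± 0.20, -1.07 ± 0.24 and -1.12 ± 0.13 in bulk, sorted and cultured samples. The sg492 difference in cultured cells was -0.41 (95% interval -0.72 to -0.10) (limma, adjusted p = 0.375) and was not called.

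Zfp600 and 2610305D13Rik, both of the KRAB zinc finger cluster on distal chromosome 4, moved in opposite directions (GRCm38 chr4:146156824-146198755, plus strand and chr4:147611937-147642513, minus strand). GENCODE M21 names the second of them Zfp979. Their promoters, taken from RefSeq on GRCm38.p6, are shown because they were almost the same sequence: the 300-base windows, 250 bases before a start site and 50 after it, had 289 identical bases over 306 columns of a global alignment, or 94.4%. The first line is the 250 bases before the first start of Zfp600 (window chr4:146156577-146156876, plus strand) and the second the same part for 2610305D13Rik (window chr4:147642459-147642758, minus strand). Capitals mark matches, on either strand, to 6 motifs: AGGTCA (nuclear receptor motif), CACGTG (E-box), TGACTCA (AP-1), GGGCGG (Sp1/KLF box), CCAAT (the box bound by NF-Y) and TTCNNNGAA (STAT).
Zfp600, first start: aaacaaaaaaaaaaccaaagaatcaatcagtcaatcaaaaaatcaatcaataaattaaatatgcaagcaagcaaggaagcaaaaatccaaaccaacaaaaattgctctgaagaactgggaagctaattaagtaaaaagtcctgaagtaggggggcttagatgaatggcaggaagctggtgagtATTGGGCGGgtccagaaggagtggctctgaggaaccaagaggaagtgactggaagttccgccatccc
2610305D13Rik: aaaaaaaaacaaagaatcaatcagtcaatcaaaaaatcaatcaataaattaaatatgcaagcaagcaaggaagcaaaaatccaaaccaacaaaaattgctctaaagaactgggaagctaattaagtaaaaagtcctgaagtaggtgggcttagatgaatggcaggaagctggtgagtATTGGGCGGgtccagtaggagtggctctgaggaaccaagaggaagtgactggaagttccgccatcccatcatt
In both, the capitals were a reversed CCAAT box overlapping a GGGCGG by 2 bases.

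Zfp600 was at 1.53 and 2.6 TPM in the controls, 3.24 and 2.4 TPM under sg492 and 0.8 and 0.99 TPM under sg495 in bulk tumors. It was at 3 and 3.8 TPM in the controls, 2.77 and 2.33 TPM under sg492 and 1.26 and 1.75 TPM under sg495 in sorted tumor cells. It was at 3.13 and 3.28 TPM in the controls, 2.37 and 2.35 TPM under sg492 and 0.82 and 0.72 TPM under sg495 in cultured cells. The sg495 libraries were the lowest of their sample type, and the sg492 libraries overlapped the controls in bulk tumors and lay between control and sg495 in sorted tumor cells and cultured cells. The log2 difference with sg495 was -0.67 ± 0.26, -0.81 ± 0.24 and -1.25 ± 0.15 in bulk, sorted and cultured samples. A pseudocount of 0.1 TPM moved the bulk value to -1.08 and the cultured value to -1.93, and leaving out bulk control replicate 2 moved the bulk value to -0.42.

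2610305D13Rik was at 10.6 and 12.9 TPM in the controls, 11.2 and 11.6 TPM under sg492 and 20.4 and 21.4 TPM under sg495 in bulk tumors. It stood at 11.7 and 13.3 TPM in the controls, 11.1 and 8.33 TPM under sg492 and 22.1 and 17.6 TPM under sg495 in sorted tumor cells. It stood at 6.87 and 6.85 TPM in the controls, 6.85 and 7.69 TPM under sg492 and 12.4 and 12.2 TPM under sg495 in cultured cells. The sg495 libraries were the highest in each sample type, and in sorted tumor cells the sg492 libraries were below both controls. The sg495 log2 difference was 0.78 ± 0.12, 0.62 ± 0.18 and 0.76 ± 0.09 in the same order of sample types.

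Reads of 75 bases could be split between these genes, because RSEM, which made the values, divides a read that fits several transcripts. Of all 75-base words in the M21 transcripts of Zfp600, 74.5% also occurred in another gene, 64.4% in Rex2 alone, and 14.6% of the words of 2610305D13Rik occurred in Zfp600. The values of both genes are therefore uncertain. Rex2 itself was at 0.44 TPM or less in the 18 libraries. The sum over Zfp600 and the 7 genes that share words with it was 12.9 and 16.8 TPM in the controls and 23.4 and 23.2 TPM under sg495 in bulk tumors. In sorted tumor cells that sum was 15.6 and 18.1 TPM in the controls and 24.3 and 21.02 TPM under sg495. In cultured cells it was 10.7 and 11.1 TPM in the controls and 14.1 and 13.7 TPM under sg495. Under sg492 it was 15.3 and 15.4 TPM (bulk), 14.8 and 11.3 TPM (sorted) and 9.82 and 11.3 TPM (cultured). The sums were higher with sg495 in each sample type, while Zfp600 alone was lower. Most of each sum was 2610305D13Rik, which was chosen for its rise, so the rise of the sums is no separate result. The part that read sharing has in the opposite directions was not tested.

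Gm9732 is the symbol of the table for a gene that M21 lists as 1700049E17Rik2 (GRCm38 chr14:41573211-41581305, plus strand), one of a group of near-identical predicted genes on chromosome 14. All of its 75-base words also occurred in other genes, 26 in number, of which 22 are in the table. Its own values were 1.45 and 0.81 TPM in the controls, 2.7 and 2.06 TPM under sg492 and 4.82 and 5.55 TPM under sg495 in bulk tumors. Sorted tumor cells showed 1.63 and 1.58 TPM in the controls, 1.8 and 2.57 TPM under sg492 and 6.39 and 7.44 TPM under sg495. Cultured cells showed 0.99 and 0.6 TPM in the controls, 1.56 and 1.37 TPM under sg492 and 4.27 and 4.05 TPM under sg495. It had the largest difference of the 5 higher members in each sample type, with sg495 log2 differences of 1.55 ± 0.23, 1.60 ± 0.22 and 1.53 ± 0.18 in bulk, sorted and cultured samples. Both sg492 libraries also lay above both controls in each sample type, with differences of 0.68 (95% interval 0.12 to 1.23), 0.28 (95% interval -0.25 to 0.81) and 0.47 (95% interval 0.04 to 0.89). The adjusted p of these sg492 differences was 0.525, 0.804 and 0.445 in limma, so none was called.

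Because no read of 75 bases could be unique to Gm9732, its values were also summed with those of the genes that share its words. The sum was 5.04 and 2.41 TPM in the controls, 5.98 and 4.88 TPM under sg492 and 9.94 and 9.74 TPM under sg495 in bulk tumors. Sorted tumor cells had sums of 3.53 and 5.22 TPM, 4.31 and 6.52 TPM and 11.8 and 11.7 TPM in the same order. Cultured cells had sums of 2.31 and 2.03 TPM, 3.36 and 3.54 TPM and 9.13 and 8.29 TPM. The sg495 sums were the highest of each sample type, as the values of Gm9732 alone were. Each sum holds Gm9732, which was chosen for its rise.

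**Figure D2:**
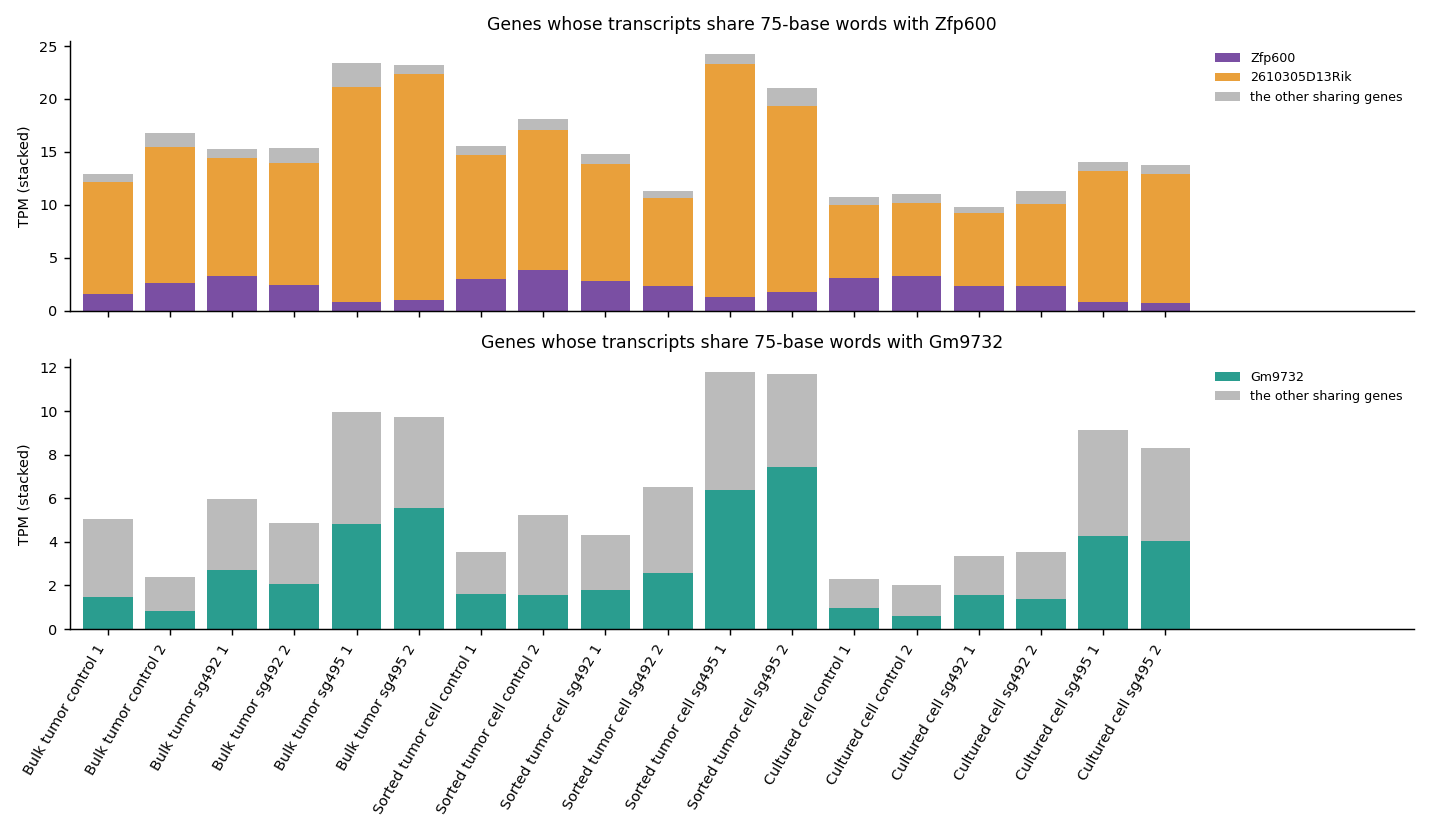
Stacked TPM in each of the 18 libraries for the genes whose transcripts share 75-base words with Zfp600 (top) and with Gm9732 (bottom). In the sg495 bars the Zfp600 part shrinks while the 2610305D13Rik part and the whole bar grow, and the Gm9732 bars are tallest with sg495.

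RefSeq promoter windows were found for 8 of the 10 genes, 12 windows in all, and not for Clu or Pnma2. Only 1 of the 12, at the second start of Zfp600, held AGGTCA, against 16.3% of the 32851 windows of the genome. That window is shown for that motif, in capitals, beginning at base 242 of the window, 9 bases before the start (window chr4:146157440-146157739, plus strand).
Zfp600, second start: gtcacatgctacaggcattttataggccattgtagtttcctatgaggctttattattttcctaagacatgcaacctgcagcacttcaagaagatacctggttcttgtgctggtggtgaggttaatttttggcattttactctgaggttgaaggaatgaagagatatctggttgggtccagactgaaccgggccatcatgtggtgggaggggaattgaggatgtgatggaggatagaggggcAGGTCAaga
Tinagl1, the most abundant member, is shown because its second start held the most matches to GGGCGG, 4 (window chr4:130174753-130175052, minus strand), a motif found in 35.7% of all windows.
Tinagl1, second start: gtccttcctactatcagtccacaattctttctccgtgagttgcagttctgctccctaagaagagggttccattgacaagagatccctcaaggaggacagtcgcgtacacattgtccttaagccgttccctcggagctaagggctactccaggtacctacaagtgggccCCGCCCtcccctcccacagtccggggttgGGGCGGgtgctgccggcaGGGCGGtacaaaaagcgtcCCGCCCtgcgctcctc
GGGCGG was present in 8 of the 12 windows, and in windows of both members that were higher and members that were lower with sg495. CCAAT was in 2 of the 12 (37.4% of all windows), CACGTG in 1 (7.15%), TTCNNNGAA in 1 (8.30%) and TGACTCA in none (5.20%). Windows of one gene can overlap, as those of Lmo1 do. A match is a run of letters, not a bound site, and nothing follows from the absence of one in so short a window.

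With sg492, none of the 10 genes was called in any sample type. The share called among all genes was 0% (bulk), 0.0388% (sorted) and 0.05% (cultured). At an unadjusted p below 0.05, limma had 1132 of 13639 genes (bulk), 920 of 12899 (sorted) and 1265 of 12007 (cultured). Among the 30 pairs of a member and a sample type, 5 had an unadjusted p below 0.05, namely Gm9732 in bulk tumors and cultured cells, Lmo1 in sorted tumor cells, and Pnma2 and Tnfrsf19 in cultured cells. Both sg492 libraries lay beyond both controls for 4 members (bulk), 6 (sorted) and 7 (cultured). The same held for 42.5%, 40.3% and 41.5% of all genes tested. These counts and shares take both directions together. In sorted tumor cells Tinagl1, 2610305D13Rik and Fam81a lay beyond the controls on the side opposite to sg495, as did Tinagl1 and Lmo1 in cultured cells. No member did so in bulk tumors. The sg492 comparison shares its control libraries with the comparison by which the members were chosen. An interval that includes 0 does not show that sg492 left a gene alike, and the widest of these, that of Clu in sorted tumor cells, ran from -0.82 to 0.81.

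**Figure D3:**
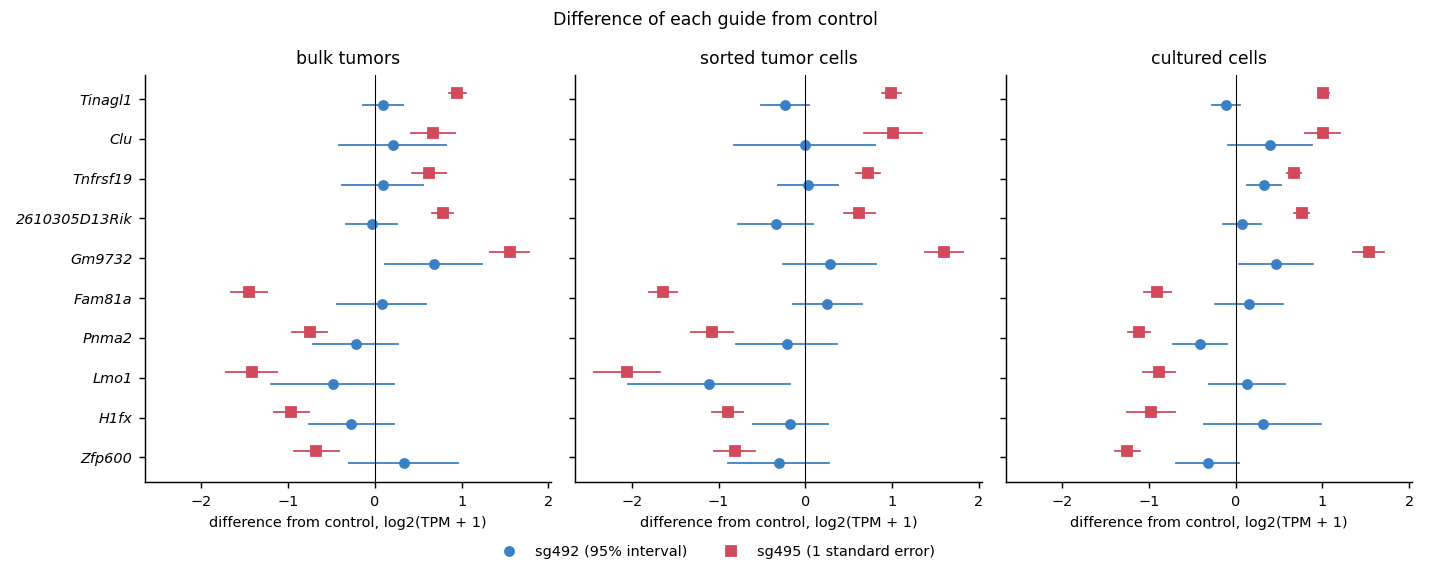
Difference from control on the log2(TPM + 1) scale for each gene and sample type; blue circles are sg492 with 95% intervals, red squares are sg495 with 1 standard error, shown as a description. The sg495 squares lie at or beyond 0.62 in size, and the sg492 circles scatter around 0, with Lmo1 in sorted tumor cells, at -1.11, the farthest from it.

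The level of most members differed between tumor cells and cultured cells, a comparison made over the control and sg492 libraries and without sg495. Of the 10 members, 6 were called between sorted tumor cells and cultured cells, against 22.1% of all 13086 genes. Tinagl1 averaged 214 ± 18.4 TPM (bulk), 180.5 ± 22.8 TPM (sorted) and 20.8 ± 1.23 TPM (cultured) (SD, n = 4), a log2 difference of 3.05 ± 0.08 between sorted and cultured cells (limma, adjusted p = 1.91e-08). Clu, H1fx and Fam81a were also higher in sorted than in cultured cells, by 1.37 ± 0.23, 1.35 ± 0.17 and 0.80 ± 0.12 (limma, adjusted p = 0.000833, 0.000122 and 0.000461). Tnfrsf19 and Pnma2 were lower, at -0.84 ± 0.11 and -0.79 ± 0.12 (limma, adjusted p = 0.000145 and 0.00034). 2610305D13Rik and Gm9732 passed the adjusted threshold but not the fold, at 0.57 ± 0.10 and 0.45 ± 0.16 (limma, adjusted p = 0.00103 and 0.0311). The difference for Lmo1 was 0.42 ± 0.21 and for Zfp600 0.07 ± 0.14, neither past the threshold (limma, adjusted p = 0.115 and 0.716). The members that sg495 raised and those it lowered were thus found on both sides of this comparison. Sorted and cultured cells differ in dissociation and column sorting as well as in growth, which cannot be told apart here.

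Between bulk tumors and sorted tumor cells 1 of 10 members was called, against 13% of all genes. It was H1fx, with a log2 difference of -0.80 ± 0.17 between bulk tumors and sorted tumor cells (limma, adjusted p = 0.00504). H1fx averaged 3.23 ± 0.659 TPM (bulk), 6.31 ± 0.869 TPM (sorted) and 1.93 ± 0.715 TPM (cultured) (SD, n = 4). Tinagl1 (0.25 ± 0.08) and Pnma2 (0.51 ± 0.12) were higher in bulk tumors with an adjusted p of 0.0331 and 0.00778 in limma, under the fold threshold. The H1fx call was lost with the control libraries alone, where the log2 difference was -0.75. In a bulk sample fewer cells of a type and less RNA per cell cannot be told apart.

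**Figure D4:**
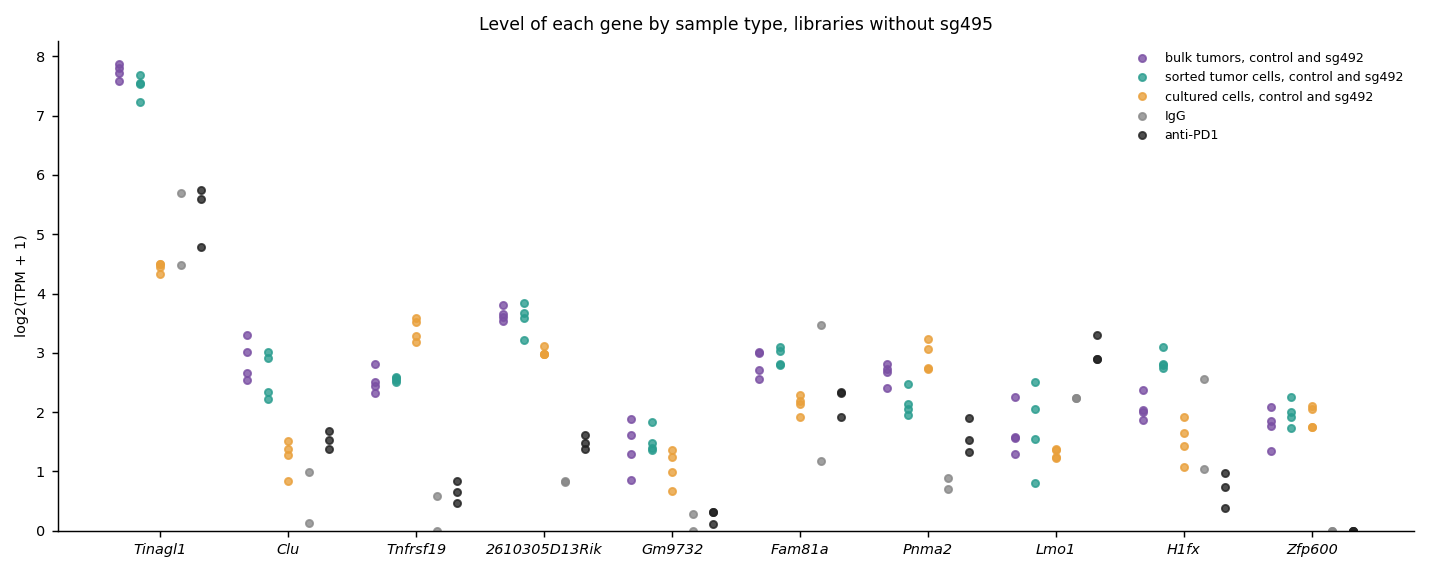
Level of each gene as log2(TPM + 1) in the libraries without sg495, each point a library; purple is bulk tumors, green is sorted tumor cells and orange is cultured cells (control and sg492, 4 libraries each), gray is IgG and black is anti-PD1. Tinagl1 in cultured cells lies well under the tumors, Tnfrsf19 and Pnma2 are highest in cultured cells, and Zfp600 is at 0 in the IgG and anti-PD1 libraries.

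Composition differed in the libraries of the antibody comparison. Their summed TPM over 20 leukocyte markers was 11237 to 12155 with IgG and 7643 to 10695 with anti-PD1, against 505 to 1137 in bulk tumors. That over 12 melanocyte markers was 1753 to 4156 with IgG and 3535 to 5386 with anti-PD1, against 16151 to 17234. The part that composition has in the anti-PD1 differences below was not tested. In these libraries 7 of the 10 members passed the filter of a mean of at least 1 TPM, and none was called between anti-PD1 and IgG, nor was any other gene (0%, with 964 genes at an unadjusted p below 0.05 in limma). Lmo1 was at 3.74 and 3.7 TPM with IgG and 8.82, 6.47 and 6.45 TPM with anti-PD1. Its log2 difference was 0.79 ± 0.30 (limma, adjusted p = 0.608). Fam81a was at 1.25 and 10.1 TPM with IgG and 4, 4.04 and 2.78 TPM with anti-PD1. H1fx was at 1.07 and 4.89 TPM with IgG and 0.67, 0.31 and 0.96 TPM with anti-PD1. The remaining members tested, Tinagl1, Clu, Pnma2 and 2610305D13Rik, differed by 0.29 to 0.98, with adjusted p from 0.608 to 0.815 in limma. Tinagl1 was at 50.97 and 21.32 TPM with IgG and 47.35, 52.9 and 26.63 TPM with anti-PD1. Clu was at 0.09 and 0.99 TPM with IgG and 1.9, 2.22 and 1.61 TPM with anti-PD1. For Fam81a, H1fx, Tinagl1 and Clu the 2 IgG libraries were farther apart than the anti-PD1 libraries were from each other. Zfp600 was listed at 0 in all 5 libraries, and Tnfrsf19 and Gm9732 were below 1 TPM in each.

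Markers of other cell types were read beside the members. In bulk tumors the leukocyte sum was 505 to 714 TPM in the controls, 774 to 924 TPM under sg492 and 1043 to 1137 TPM under sg495, with 16 of 18 tested markers above control for sg495 (median log2 difference 0.90), 17 of 18 for sg492 (0.48), and none called for either guide. Fibroblast markers summed to 395 to 494.8 TPM in the controls, 556 to 638 TPM under sg492 and 654 to 1091 TPM under sg495. In cultured cells the leukocyte sum was 4.55 to 7.64 TPM, with 12 to 14 of the 20 markers at 0 in a group, among them Ptprc, Cd3e and Itgam. The cultured sums were higher with sg495 (7.48 to 7.64 TPM) than with control (4.55 to 4.91 TPM), and 1 of 3 tested markers was called, Lyz2, named after its value was seen, which encodes lysozyme, at 0.97 ± 0.19 (limma, adjusted p = 0.0289). The cultured fibroblast sums were 12.4 to 13.3 TPM in the controls and 10.3 to 11.3 TPM under sg495, and 1 of 3 tested markers was called, Postn (periostin), at -0.70 ± 0.11 (limma, adjusted p = 0.0135), likewise named after its value was seen. In sorted tumor cells the leukocyte sum was 10.3 to 10.6 TPM in the controls, 12.2 to 14.5 TPM under sg492 and 13.8 to 21.8 TPM under sg495, with 6 to 12 markers at 0 in a group. The fibroblast sum there was 4.45 to 6.12 TPM in the controls, 5.17 to 6.89 TPM under sg492 and 6.97 to 7 TPM under sg495. Melanocyte markers, by which the label of the line was checked, summed to between 15824 and 18596 TPM in all 18 libraries. With sg495 2 of 12 tested were called in cultured cells, where 2.77% of all genes were, and the median log2 difference was 0.02. In bulk tumors 6 of 6 skeletal muscle markers were above control for sg495 and 1 of 6 for sg492. Of endothelial markers there, 8 of 10 and 9 of 10 were above control in the same order, and none of either list was called. The part that other cell types have in the members' values was not tested.

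Relatives and partners of the members were tested with sg495 in lists, where the share called among all genes was 0.0293%, 0.899% and 2.77% in bulk, sorted and cultured samples. Of the TNF receptor superfamily, Tnfrsf19 set apart, 10 genes were tested in cultured cells, where sg495 raised Ngfr, a neurotrophin receptor, by 1.33 ± 0.16 and Tnfrsf12a, the receptor of TWEAK, by 0.74 ± 0.06 (limma, adjusted p = 0.00692 and 0.00216). In the same cells Tnfrsf9, the costimulatory receptor 4-1BB, was lower, at -1.26 ± 0.12 (limma, adjusted p = 0.00387). The Ngfr call was lost without sg495 replicate 1. None of 21 such receptors was called in bulk tumors, where the median of the list was 0.53 beside 0.06 for all genes and the leukocyte sums given above differed as well, and none of 8 in sorted tumor cells. The median log2 difference of the list in cultured cells was 0.07, beside -0.001 for all genes. Among Wnt targets, 7 tested in each sample type, Ccnd1 (cyclin D1) was higher in cultured cells by 0.93 ± 0.04 (limma, adjusted p = 0.000729) and Tcf7 in sorted tumor cells by 1.01 ± 0.15 (limma, adjusted p = 0.0446), the latter without a call in 9 of 11 alternatives. Among extracellular chaperones and lipid carriers, Apoe was lower in cultured cells, 1 of 7 tested, at -0.70 ± 0.03 (limma, adjusted p = 0.000691).

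Linker histones, H1fx set apart, had no call with sg495, of 2 tested (bulk), 4 (sorted) and 2 (cultured). Of the LIM-only proteins and their partners none of 12, 10 and 9 was called, and of the basement membrane partners of Tinagl1 none of 16, 13 and 14. None of 13 cofactors of KRAB zinc finger proteins was called in any sample type, Trim28 included, and none of the 6, 3 and 2 other zinc finger genes tested from distal chromosome 4. Only 1 relative of Pnma2 passed the filter, Moap1, and it was not called. With sg492 no gene of any of these lists was called. The lists were drawn up from general knowledge with the members already known.

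Between sorted and cultured cells, where 22.1% of all genes were called, the same lists were compared. All 4 linker histones tested were higher in sorted tumor cells, by 3.09 ± 0.10 for Hist1h1c, 1.77 ± 0.26 for Hist1h1e, 1.90 ± 0.37 for Hist1h1d and 1.43 ± 0.05 for H1f0, as H1fx was; RNAs of the Hist1 genes mostly lack the poly(A) tail by which these libraries were selected (limma, adjusted p from 4.22e-08 to 0.00179; Hist1h1d lost its call under the replicate block). Of 15 tested genes of the list on basement membrane partners, Fn1, Col4a1, Col4a2, Lama4 and Itga5 were higher in sorted cells, as Tinagl1 was, and none was lower. Fn1 (fibronectin) differed by 2.01 ± 0.12 and Col4a1 (type IV collagen) by 1.43 ± 0.09 (limma, adjusted p = 1.25e-06 and 1.63e-06). Of 14 tested TNF receptor genes, Tnfrsf9, Tnfrsf11b, Ltbr and Tnfrsf12a were higher in sorted cells and none was lower, the opposite of Tnfrsf19. Their log2 differences ran from 0.94 for Tnfrsf12a to 2.44 for Tnfrsf9. In the other lists Vldlr, Moap1, Axin2 and Myc were higher in sorted cells, and Abca1, Ssbp3, Uhrf1, Daxx and Nr2f2 were lower, Daxx without a call in 4 of 17 alternatives, none of the 2 tested zinc finger genes of distal chromosome 4 being called. Between bulk tumors and sorted tumor cells, where 13% of all genes were called, the 4 linker histones were lower in bulk tumors. In the same comparison 6 of 14 TNF receptor genes, 7 of 13 chaperones and lipid carriers, 5 of 15 basement membrane partners, 1 of 11 LIM-only proteins and partners and 1 of 13 KRAB cofactors were higher in bulk tumors and none was lower. Of 7 Wnt targets 2 were higher and 2 lower, and no gene of the remaining lists was called.

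The members were spread over the genome, 4 on chromosome 14, 3 on chromosome 4 and 1 each on chromosomes 6, 7 and 9. The 3 nearest tested genes on each side of each member, 57 (bulk), 55 (sorted) and 53 (cultured) after the members were set aside, had median sg495 log2 differences of 0.07, -0.05 and -0.01. None was called in bulk tumors or sorted tumor cells, where 0.0293% and 0.899% of all genes were, and 4 of 53 were called in cultured cells, where 2.77% of all genes were. Bnip3l, a mitochondrial mitophagy receptor that starts 74.1 kb from Pnma2, was lower, as Pnma2 was, at -0.74 ± 0.08 (limma, adjusted p = 0.00557), in each of its 11 alternatives as well. Gm10156, 1276 kb from Lmo1, was lower at -0.79 ± 0.12 (limma, adjusted p = 0.0149), a call lost in 5 of 11 alternatives. Gm16439 was lower at -1.44 ± 0.24 and Gm5624 higher at 1.02 ± 0.23, at 3024 and 2984 kb from Gm9732 (limma, adjusted p = 0.0173 and 0.0396). The Gm16439 call was lost in 3 of 11 alternatives, among them those without control replicate 2 and without sg495 replicate 2. Gm5624 shares 75-base words with Gm9732, so its rise is not a separate measurement, and its call was lost in 8 of 11 alternatives. With sg492 no neighbor was called in any sample type.

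**Figure D5:**
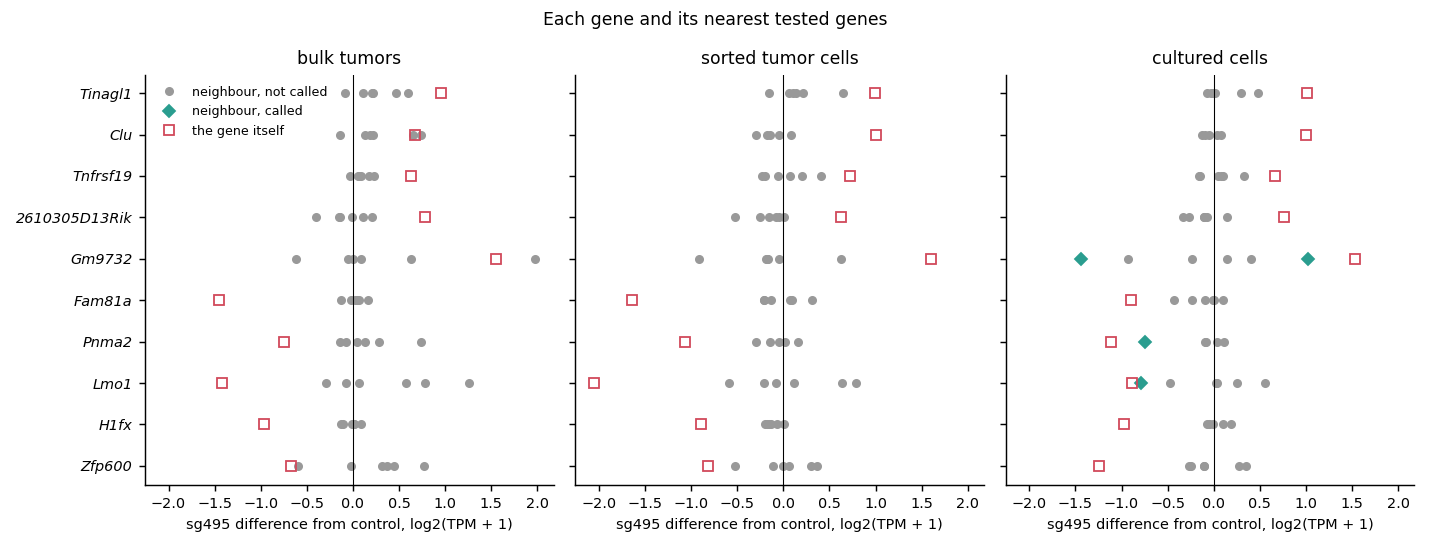
sg495 difference from control on the log2(TPM + 1) scale for each gene (open red squares) and for its nearest tested genes, up to 3 on each side (gray circles, or green diamonds where called). The squares, which show the differences by which the genes were chosen, lie apart from most circles. The 4 diamonds, all in cultured cells, belong to the neighborhoods of Gm9732, Pnma2 and Lmo1.

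The gene most like each member over the 18 libraries was found by the Pearson r of log2(TPM + 1) after the mean of each sample type was subtracted, other members set aside. All 5 members that were lower with sg495 were matched by a gene of chromosome 8, namely Fam81a by Ankrd11 (0.969), Pnma2 by Gcdh (0.951), Lmo1 by Hgsnat (0.936), H1fx by Zfp330 (0.937) and Zfp600 by Fbxo8 (0.968). The members that were higher were matched by genes of other chromosomes, namely Tinagl1 by Rbmx (0.946), Clu by Plekha8 (0.854), Tnfrsf19 by Slc37a2 (0.893), 2610305D13Rik by Rnf144a (0.962) and Gm9732 by Plekha8 (0.955). Chromosome 8 held 717 of the 13639 genes tested in bulk tumors. Its median sg495 log2 difference was -0.25 (bulk), -0.34 (sorted) and -0.33 (cultured). The rule kept its genes out of the members, while this search did not. The points are 18 libraries that share sample types and guides, and the members were chosen for a gap between sg495 and the rest, so these values describe likeness and carry no p.

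In the control libraries the members other than Tinagl1 were low to middling in level. Among the genes tested in bulk tumors, Tinagl1 stood at the 94.7th percentile and 2610305D13Rik at the 40.0th, and the remaining 8 were between the 4.32nd and the 26.9th. In cultured cells Tinagl1 was at the 50.3rd percentile, and Gm9732 and Clu were at the 0.733rd and 1.85th. The sg495 differences of Gm9732, Clu, Lmo1 and H1fx in cultured cells rest on control values of 2.14 TPM or less.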

How the data were processed

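RNA of 23 libraries was sequenced as poly(A) directional single-end reads of 75 bases. Per the study's methods and the submitters' processing notes, the authors trimmed reads with cutadapt 2.3, aligned them to the mouse genome mm10 with STAR 2.7.0d and quantified genes with RSEM 1.3.1. The authors deposited the values as TPM, which have the same sum in every library and keep no depth. The authors tested RSEM counts with DESeq2, which TPM do not allow and which was not repeated.

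Genes that averaged 1 TPM or more in the libraries compared were tested on log2(TPM + 1) with limma 3.58.1 (R 4.3.3; trend, 2-sided, Benjamini-Hochberg over all genes tested), on the libraries of 1 sample type for the guides and on the 12 control and sg492 libraries for the sample types. Fold changes on this scale understate those of low genes. The step was run on simulated data with large changes set only in genes of higher level, so that run does not cover genes as low as most members. With 2 libraries a group, a 2-sided exact permutation test cannot go below p = 0.333, so none was used. Tables were read with Python 3.11.15, pandas 2.3.3 and numpy 2.4.6 and plotted with matplotlib 3.10.9.

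Genes named were the 10 members, Nr2f6, every gene called in a neighborhood or, with a guide or between sorted and cultured cells, in a list (lists between bulk and sorted cells are given as counts), and the gene most like each member. The members and lists were chosen with earlier results of these data known. Shared 75-base words were counted in GENCODE M21 transcripts. Alternatives were a pseudocount of 0.1 TPM, no filter, median-of-ratios scaling, a replicate block, a fit of all 18 libraries, control libraries only and leaving out each library.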

Additional observations from a re-analysis of the deposited data

Results flagged for a closer look

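Lmo1, the LIM-only adaptor, had sg492 differences of different sign between the sample types. Both sg492 libraries were below both controls in bulk tumors (log2 difference -0.49) and in sorted tumor cells (-1.11), whereas both were above both controls in cultured cells (0.13). The difference between the sample types was not tested, and no single value passed the adjusted threshold in limma.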

How the results depend on the processing

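The choice of members fixed the direction of their sg495 differences, so only sizes are given: over the alternatives 288 values lay within 1 SD of the value reported and 50 beyond it, with Lmo1 in sorted tumor cells ranging from -4.18 to -1.82. No member was called with sg492 under any alternative. Over the tested values of members, those of sg492 included, 702 kept direction and the presence or absence of a call. Another 12 gained a call, 1 lost it (H1fx, above) and 25 changed sign. Members called between bulk and sorted cells were 0 with control libraries only, 2 with a pseudocount of 0.1 TPM and 1 to 2 with a library left out (2 without sorted control replicate 2). TPM keep no depth, so the counting error of the members near 1 TPM is unknown; the cause of the changes below was not tested.

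Counts over all genes depended on the setting. For sg492 they were, in bulk tumors, 0 as reported, 1 with a pseudocount of 0.1 TPM and 0 to 66 with a library left out (66 without control replicate 1). In sorted tumor cells sg492 gave 14 in the fit of all 18 libraries, 0 without the filter and 0 to 5 with a library left out, fewer without any library but sg492 replicate 2. In cultured cells it gave 2 in the fit of all 18 libraries and 0 to 1 with any library left out. For sg495 in bulk tumors the count was 395 in the fit of all 18 libraries, 0 without the filter and 0 to 190 with a library left out (190 without control replicate 1). In sorted tumor cells sg495 gave 399 in the fit of all 18 libraries, 3 without the filter and 4 to 61 with a library left out (4 and 5 without sg495 replicates 1 and 2). In cultured cells it gave 219 without the filter and 165 to 293 with a library left out (165 without sg495 replicate 1). Anti-PD1 gave 0 to 19 (19 without IgG replicate 1).

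The replicate block gave 0 genes for sg492 in each sample type, 0, 79 and 293 for sg495 (bulk, sorted and cultured), and 514 for anti-PD1, where it left few degrees of freedom. Members called were 7 between sorted and cultured cells and 1 between bulk and sorted cells under the block. Same-numbered libraries correlated at -0.126 to 0.0507 in their deviations from group means, so the numbers were not taken as pairs. Exchanging the sg492 numbers in bulk tumors, chosen after seeing the data, gave 0 genes for either guide.

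Signs changed only in small or uncalled differences. With control libraries only, 2610305D13Rik differed by -0.083 between bulk and sorted cells. Under the replicate block Fam81a was at 0.0052 (anti-PD1) and 0.097 (bulk against sorted), and Tnfrsf19 at 0.11 (bulk against sorted). With a library left out, ranges crossing 0 were, for sg492 in bulk tumors, -0.17 to 0.10 for 2610305D13Rik, -0.12 to 0.53 for Clu, -0.14 to 0.30 for Fam81a, -0.017 to 0.21 for Tinagl1 and -0.16 to 0.34 for Tnfrsf19. For sg492 in sorted tumor cells they were -0.40 to 0.39 for Clu and -0.0064 to 0.068 for Tnfrsf19, and in cultured cells -0.0018 to 0.14 for 2610305D13Rik. Between bulk and sorted cells they were -0.022 to 0.16 for 2610305D13Rik, -0.22 to 0.0007 for Gm9732, -0.24 to 0.13 for Lmo1 and -0.15 to 0.10 for Tnfrsf19. For anti-PD1 they were -1.28 to 1.02 for Fam81a and -0.32 to 0.90 for Tinagl1.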
